A study of Mus musculus with 6 samples.

Results

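MHCIIhi cells of the small bowel muscularis externa (ME) were compared here by the RNA of the genes that make, load and switch on MHC class II, the surface protein by which the cells had been sorted. The 10 genes, taken by name out of the 26110 listed, were H2-Aa, H2-Ab1 and H2-Eb1 (classical chains), Cd74 (invariant chain), H2-DMa, H2-DMb1 and H2-DMb2 (H2-M), H2-Oa and H2-Ob (H2-O) and Ciita. RNA-seq of bulk cells was available for 3 CX3CR1- and 3 CX3CR1+ libraries. Both gates carried the genotype CX3CR1+/GFP, in which GFP replaces Cx3cr1 on one chromosome, both came from untreated female mice on the C57BL/6 background, and both were MHCIIhi, so that by design they differed in the GFP gate. Per the methods the ME of several mice was pooled to obtain enough cells, an age is not given in the sources used here, and whether each library had a pool of its own is not stated, so that every p-value below measures the spread between libraries, which may be technical. The sample labels call all of these cells dendritic cells, whereas the study calls them macrophages, and the gates are named here only by their surface markers.

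MHC class II molecules are pairs of an alpha and a beta chain that show peptides to CD4+ T cells. They are assembled in the endoplasmic reticulum with the invariant chain Cd74, which blocks the groove and leads them to endosomes, where cathepsins trim it to a short remnant. H2-M, a pair of H2-DMa with a beta chain, exchanges this remnant for peptide, and H2-O, the pair of H2-Oa and H2-Ob, holds H2-M in check and is best known from B cells and some dendritic cells. Ciita is the coactivator of class II genes, and it does not touch DNA itself but joins RFX, CREB and NF-Y proteins bound to the S, X and Y boxes of class II promoters. In the gut wall, macrophages, dendritic cells and B cells all carry MHC class II.

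In genome build GRCm38, 8 of the 10 genes lie in the class II region of chromosome 17. Along this region the order was H2-Oa (chr17:34092340-34095234, + strand), H2-DMa (chr17:34119541-34139101, +), H2-DMb2 (chr17:34143307-34151555, +), H2-DMb1 (chr17:34153072-34160230, +), H2-Ob (chr17:34238903-34254414, +), H2-Ab1 (chr17:34257689-34269419, +), H2-Aa (chr17:34282744-34287823, -) and H2-Eb1 (chr17:34305867-34316674, +). Ciita lies at chr16:10480059-10528418 (+), and Cd74 on another chromosome again. Among these genes H2-Ob thus lies next to H2-Ab1, and H2-DMb2 next to H2-DMb1.

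The start regions of some of these genes can be read side by side. RefSeq start windows of 300 bases (250 before and 50 after the start, GRCm38.p6) were found for 7 of the 10 genes and are missing for H2-Ab1, Cd74 and Ciita. Below are 87 bases upstream of the RefSeq start of 6 of them, 5′ to 3′ on the gene's strand, aligned on TGATTGG, the letters of a Y box. For H2-DMb1, H2-DMb2 and H2-Oa they lie partly or wholly within the gene span given above, whose GENCODE start is further upstream. Capitals mark TGATTGG and, where present, AACNNATG, letters at the place of the X box. The stretches are chr17:34287847-34287933 (-) for H2-Aa, chr17:34305746-34305832 (+) for H2-Eb1, chr17:34153068-34153154 (+) for H2-DMb1, chr17:34145097-34145183 (+) for H2-DMb2, chr17:34092274-34092360 (+) for H2-Oa and chr17:34238786-34238872 (+) for H2-Ob.
H2-Aa: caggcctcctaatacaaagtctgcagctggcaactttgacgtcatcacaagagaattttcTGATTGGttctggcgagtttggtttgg
H2-Eb1: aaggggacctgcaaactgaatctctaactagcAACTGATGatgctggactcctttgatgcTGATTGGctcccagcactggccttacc
H2-DMb1: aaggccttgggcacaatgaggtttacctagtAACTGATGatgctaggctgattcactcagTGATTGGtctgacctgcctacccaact
H2-DMb2: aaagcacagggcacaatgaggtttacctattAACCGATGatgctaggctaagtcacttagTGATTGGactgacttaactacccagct
H2-Oa: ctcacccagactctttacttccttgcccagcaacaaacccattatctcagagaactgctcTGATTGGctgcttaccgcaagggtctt
H2-Ob: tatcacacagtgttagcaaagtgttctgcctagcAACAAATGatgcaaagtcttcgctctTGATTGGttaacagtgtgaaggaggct

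These letters were chosen after the windows had been read, so their presence in the members is a description. On either strand, TGATTGG occurred in 7.82% and AACNNATG in 8.86% of all 32851 mouse windows, and the X letters followed by the Y letters with 10 to 30 bases between them in 0.0457% (15 windows). The 2 motifs do not overlap in this pair. H2-Eb1, H2-DMb1, H2-DMb2 and H2-Ob held the pair, with 20, 21, 21 and 18 bases between the 2 motifs. H2-Aa and H2-Oa held the Y letters alone, and neither motif was found in the 2 windows of H2-DMa. The pair therefore stood before the RefSeq starts of H2-DMb2 and H2-Ob, which were higher in CX3CR1- cells, and also before those of H2-Eb1 and H2-DMb1, which were not.

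**Figure D1:**
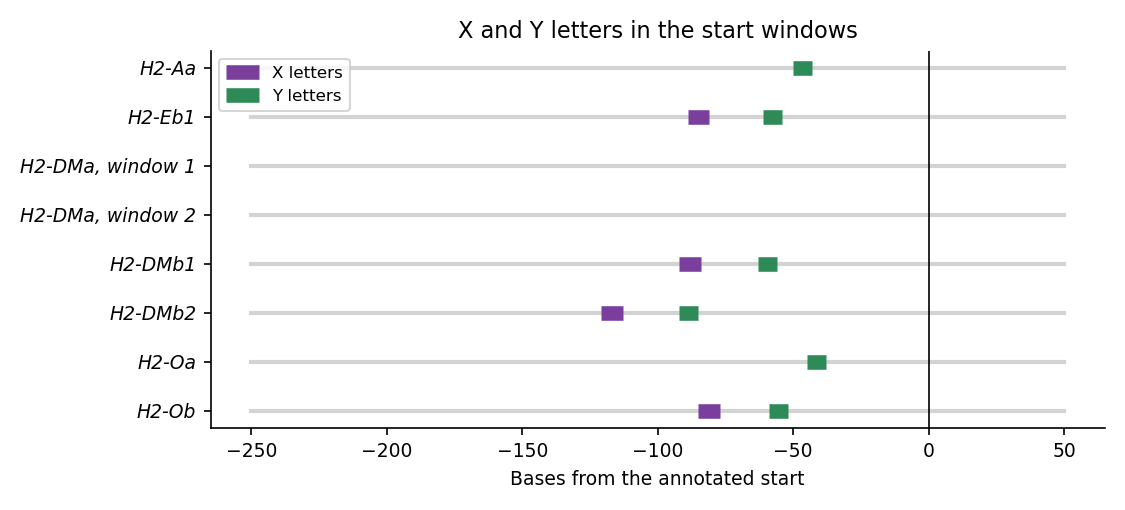
Position of the X letters (purple) and Y letters (green) in the RefSeq start windows of 7 class II genes, in bases from the annotated start (grey lines show the 250 bases before and 50 after it). The X letters of the pair start 121 bases upstream in H2-DMb2 and between 92 and 85 bases upstream in H2-DMb1, H2-Eb1 and H2-Ob, and H2-DMa has neither in its 2 windows.

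The gate itself was checked first. Cx3cr1, the gene that carries the reporter, read 23.2, 18.9 and 28.5 in the CX3CR1- libraries 1, 2 and 3 and 371, 380 and 347 in the CX3CR1+ libraries 1, 2 and 3, on the scale of the deposited values, which were normalized between libraries with DESeq2. It was 15.5-fold lower in CX3CR1- cells (log2 fold change -3.92, adjusted p = 7.72e-06). Here and below, a log2 fold change is the difference of mean log2(value + 1), CX3CR1- minus CX3CR1+. A value such as 15.5-fold is instead the ratio of the group means of the normalized values. The adjusted p is from limma with Benjamini-Hochberg adjustment over 17812 genes. A gene is called when its absolute log2 fold change is at least 1 and its adjusted p at most 0.05. Ptprc, which encodes the leukocyte antigen CD45, lay between 2860 and 4526 in CX3CR1- and between 3897 and 4579 in CX3CR1+ libraries, and it was not called (log2 fold change -0.20, adjusted p = 0.472).

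The libraries held about 6517531 to 11927322 reads in CX3CR1- and 5346391 to 17616596 in CX3CR1+ cells, and 3 reads corresponded to a normalized value of 1.39 to 5.36. The share of genes encoded in mitochondria in all normalized values was 51.7 ± 3.76% in CX3CR1- against 19.6 ± 1.55% in CX3CR1+ libraries (SD, n = 3). Of 12 macrophage markers, 11 were called lower in CX3CR1- cells and all 12 were measured above 3 reads in at least one CX3CR1- library, with a summed level of 15410 to 19163 in CX3CR1- and 61407 to 68040 in CX3CR1+ libraries. Of 8 conventional dendritic cell markers, 6 were called higher in CX3CR1- cells. In bulk RNA, fewer cells of a type and less RNA per cell cannot be told apart, and this holds for every level below.

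Within the MHCIIhi gate, the class II genes went in opposite directions. All 10 had the mean value of 10 or more that the test required. H2-DMb2, H2-Oa and H2-Ob were called higher in CX3CR1- cells, 3 of 10 against a background of 12.2% of all tested genes. H2-Aa alone was called lower, 1 of 10 against 8.15%. By the adjusted p alone, a rule without a fold limit that was added after the data had been seen, 3 were higher (background 13.3%) and 4 were lower, H2-Aa, H2-Ab1, H2-Eb1 and Cd74 (background 11.0%). These same 7 genes did not overlap between the gates, where 40.0% of all tested genes did not. The median log2 fold change of the 10 genes was -0.25, beside -0.0035 over all tested genes. In every gene list, counts of called genes stand beside the same background of 12.2% higher and 8.15% lower.

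**Figure D2:**
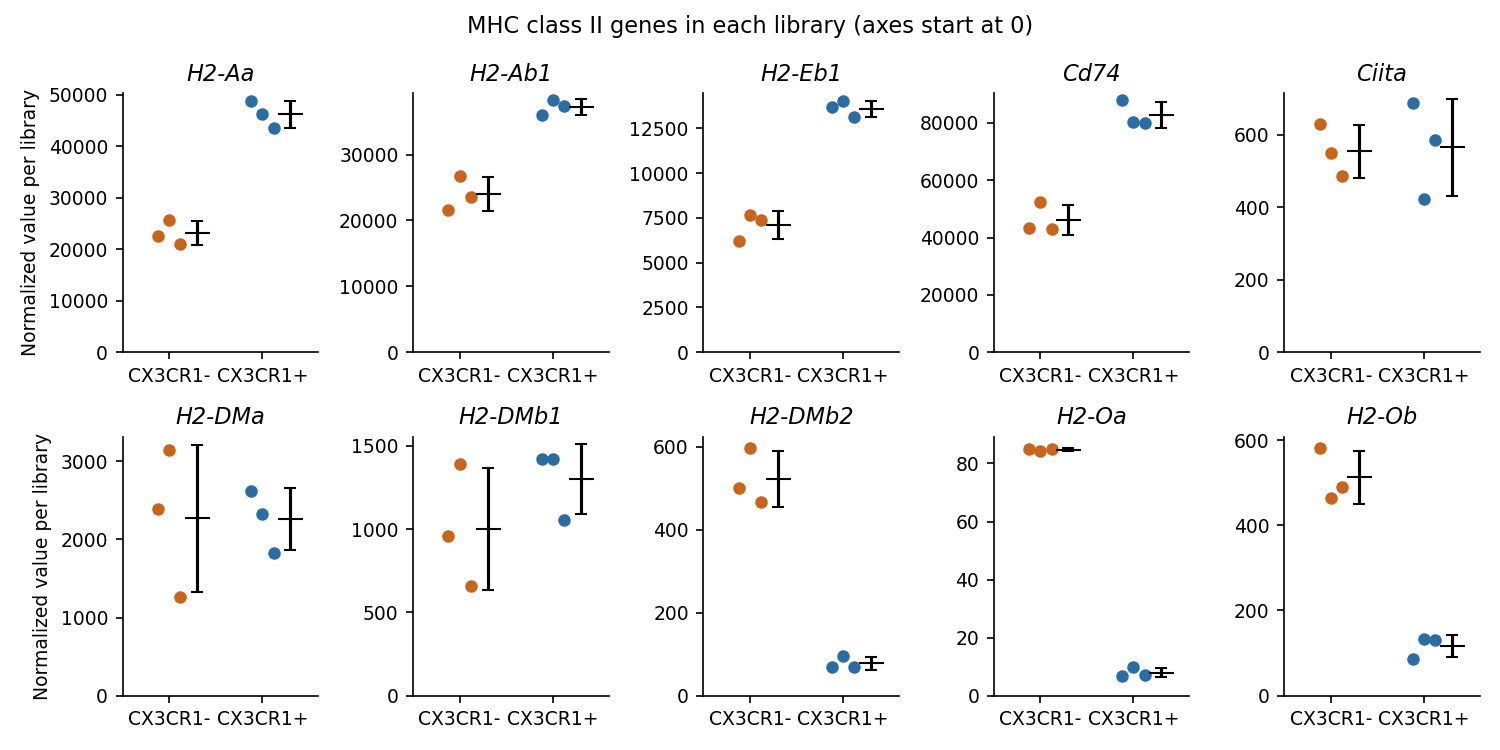
Normalized value of the 10 class II genes in each of the 6 libraries, CX3CR1- in orange and CX3CR1+ in blue, with the mean and SD (n = 3) beside the points and every axis from 0. H2-Aa, H2-Ab1, H2-Eb1 and Cd74 lie lower and H2-DMb2, H2-Oa and H2-Ob higher in all 3 CX3CR1- libraries, and the gates overlap for Ciita, H2-DMa and H2-DMb1.

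Of the classical chains and the invariant chain, H2-Aa alone was called, and the other 3 passed the adjusted p but not the fold limit. H2-Aa, the alpha chain of I-A, read 22523, 25584 and 21086 in CX3CR1- and 48796, 46152 and 43468 in CX3CR1+ libraries. The CX3CR1- libraries were all lower, the means being 23064 ± 2297 and 46138 ± 2664 (SD, n = 3), and the log2 fold change was -1.00 (SE 0.12, 95% interval -1.28 to -0.73, adjusted p = 2.43e-04). This call rests on a fold change just past the limit of 1: it was lost, with the adjusted p still at most 0.00361, when CX3CR1- library 1 (-0.99) or 3 (-0.94) or CX3CR1+ library 1 (-0.96) was left out, and under 3 other scalings. H2-Ab1, the beta chain that pairs with H2-Aa, read 21600, 26732 and 23596 in CX3CR1- and 36021, 38358 and 37395 in CX3CR1+ libraries. Again no CX3CR1- library reached the CX3CR1+ range, and the log2 fold change was -0.64 (SE 0.12, 95% interval -0.91 to -0.37, adjusted p = 0.00360), under the fold limit. Without an intensity trend in limma its adjusted p was 0.0894.

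H2-Eb1, the beta chain of I-E, read 6217, 7686 and 7398 in CX3CR1- and 13666, 14014 and 13122 in CX3CR1+ libraries. In mice of the C57BL/6 background the alpha chain of I-E is not made, so that H2-Eb1 is transcribed without its partner. Its log2 fold change of -0.94 (SE 0.13, 95% interval -1.23 to -0.65, adjusted p = 5.19e-04) lay close to that of H2-Aa, and without CX3CR1- library 2 it passed the fold limit (-1.00). Cd74, the invariant chain, read 43190, 52257 and 43050 in CX3CR1- and 87944, 80315 and 80038 in CX3CR1+ libraries. It too separated the gates, with a log2 fold change of -0.85 (SE 0.12, 95% interval -1.12 to -0.57, adjusted p = 6.94e-04). The summed level of all 10 genes took 1.84 ± 0.0902% of the non-mitochondrial total in CX3CR1- and 2.87 ± 0.104% in CX3CR1+ libraries (SD, n = 3), nearly all of it from these 4 genes.

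H2-O was higher in CX3CR1- cells in both of its chains. H2-Oa read 85.1, 84.1 and 84.9 in CX3CR1- and 6.95, 9.85 and 7.09 in CX3CR1+ libraries. The CX3CR1- libraries hardly differed from one another (84.7 ± 0.486, SD, n = 3). This SD is below the value of 1 read in each of them (1.04, 1.79 and 0.997), so that it is no measure of precision. The CX3CR1+ values, although low, were above the level of 3 reads in each library (1.39, 2.46 and 4.25). The mean was 10.6-fold higher in CX3CR1- cells (log2 fold change 3.27, SE 0.38, 95% interval 2.43 to 4.11, adjusted p = 1.72e-04). H2-Ob read 583, 464 and 490 in CX3CR1- and 86.8, 132 and 130 in CX3CR1+ libraries. It was 4.41-fold higher, again without overlap (log2 fold change 2.15, SE 0.24, 95% interval 1.62 to 2.68, adjusted p = 1.33e-04). H2-Oa overlaps the gene BC051537 on the opposite strand, which holds 18.3% of its 31-base words and has no entry among the deposited values. Since the library kit does not mark strand, reads of this stretch cannot be told apart.

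H2-M behaved differently by chain. H2-DMa, its only alpha chain, read 2392, 3148 and 1267 in CX3CR1- and 2622, 2327 and 1832 in CX3CR1+ libraries. The gates overlapped and the CX3CR1- libraries spread over more than the CX3CR1+ ones, so that the log2 fold change of -0.08 had a 95% interval of -0.73 to 0.58 (adjusted p = 0.881). H2-DMb1, one of its 2 beta chains, read 958, 1388 and 660 in CX3CR1- and 1418, 1424 and 1057 in CX3CR1+ libraries. Here too the gates overlapped (log2 fold change -0.43, SE 0.26, 95% interval -1.01 to 0.15, adjusted p = 0.276). H2-DMb2, the other beta chain, read 500, 597 and 467 in CX3CR1- and 68.4, 96.0 and 70.1 in CX3CR1+ libraries. The lowest CX3CR1- library was far above the highest CX3CR1+ library, and the mean was 6.67-fold higher (log2 fold change 2.73, SE 0.23, 95% interval 2.21 to 3.25, adjusted p = 2.72e-05).

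The beta chains of H2-M are near copies, which touches their separate values. Of the 31-base words in the transcripts, H2-DMb1 shares 31.4% with H2-DMb2, and H2-DMb2 shares 29.7% with H2-DMb1. The split of reads between them is thus partly an estimate. Counting every gene, H2-DMb2 shares 36.6%, and its words shared beyond H2-DMb1 are not covered by a sum of the 2 chains. Added together, an alternative chosen after the data had been seen, they read 1458, 1985 and 1127 in CX3CR1- and 1487, 1520 and 1127 in CX3CR1+ libraries. The sums overlapped, with a log2 difference of 0.12 (exact two-sided permutation test, p = 1, where the smallest p for 3 against 3 is 0.1). The difference was thus in the make-up of the beta chain RNA, with H2-DMb2 at 0.430 to 0.707 of the level of H2-DMb1 in CX3CR1- and at 0.0482 to 0.0675 in CX3CR1+ libraries. For the other genes shared words were fewer, with 9.23% of H2-DMa held by Brd2 on the opposite strand, 2.77% of Ciita and at most 1.41% of Cd74, H2-Eb1, H2-Aa, H2-Ab1 and H2-Ob shared with any gene.

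Ciita, the coactivator, was not called in either direction. It read 630, 549 and 485 in CX3CR1- and 688, 422 and 586 in CX3CR1+ libraries, with means of 555 ± 73.0 and 565 ± 134 (SD, n = 3). The gates overlapped, and the log2 fold change of -0.01 had a 95% interval of -0.50 to 0.49 (SE 0.22, adjusted p = 0.987). Differences within that interval, in either direction, remained compatible with these 6 libraries. The changes of the other genes thus stood beside Ciita levels that could not be told apart.

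**Figure D3:**
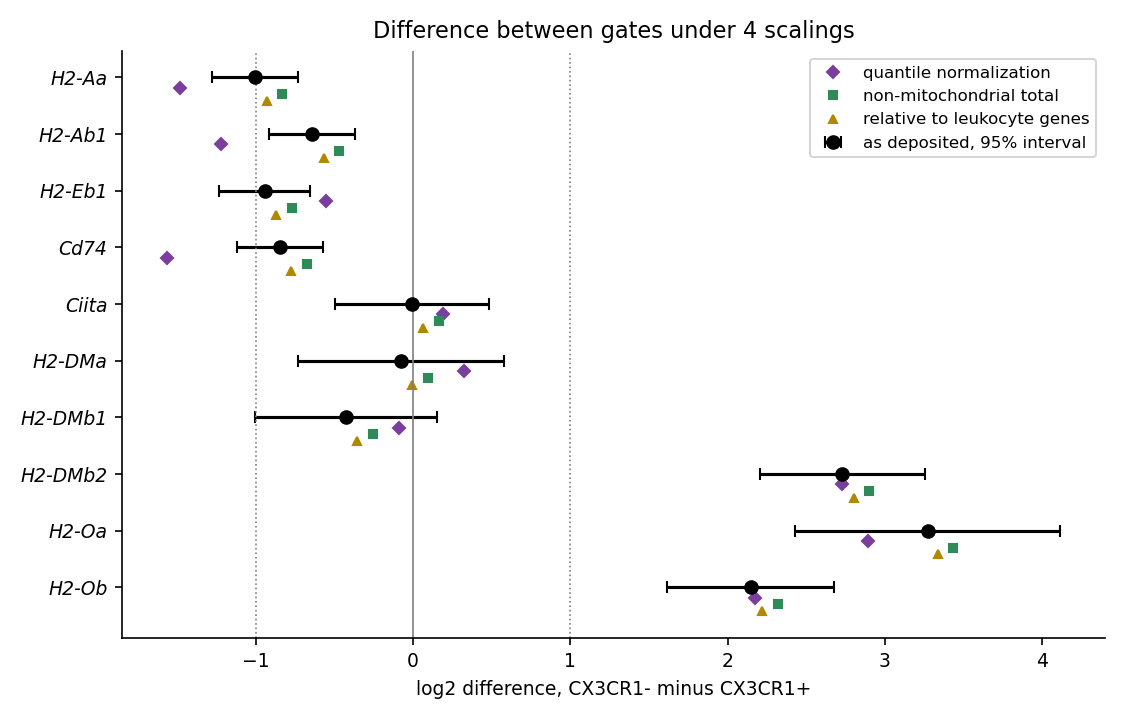
Log2 difference of the 10 genes between the gates (CX3CR1- minus CX3CR1+), with the 95% interval from limma on the deposited scale (black) and the same difference under 3 other scalings (coloured). H2-DMb2, H2-Oa and H2-Ob stay right of the dotted limit at 1 and H2-Aa, H2-Ab1, H2-Eb1 and Cd74 left of 0 under all 4, whereas Ciita and H2-DMa change sign.

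Ratios between genes within a library do not depend on a factor that scales the whole library, although quantile normalization can change them, and 6 were compared. All 6 separated the gates in every library, and each reached the smallest possible p of 0.1 (exact two-sided permutation test, 0.1 after Benjamini-Hochberg adjustment), so that none could pass 0.05. H2-Oa, the alpha chain of the inhibitor, stood at 0.0267 to 0.0670 of H2-DMa in CX3CR1- and at 0.00265 to 0.00423 in CX3CR1+ libraries, a log2 difference of 3.35, which was 2.48 with a pseudocount of 10. H2-Ob stood at 0.334 to 0.743 of H2-DMb1 in CX3CR1- and at 0.0612 to 0.123 in CX3CR1+ libraries, a log2 difference of 2.58. The ratio of H2-DMb2 to H2-DMb1 differed by 3.16 on the log2 scale.

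The ratios to H2-Ab1 differed less. H2-Aa was at 0.894 to 1.04 of H2-Ab1 in CX3CR1- and at 1.16 to 1.35 in CX3CR1+ libraries (log2 difference -0.36). Cd74 and H2-Eb1 also stood lower relative to H2-Ab1 in CX3CR1- cells, by log2 differences of -0.21 and -0.30. Under quantile normalization, however, H2-Eb1 had a log2 fold change of -0.55 and H2-Ab1 of -1.22, so that the direction of this ratio turned.

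**Figure D4:**
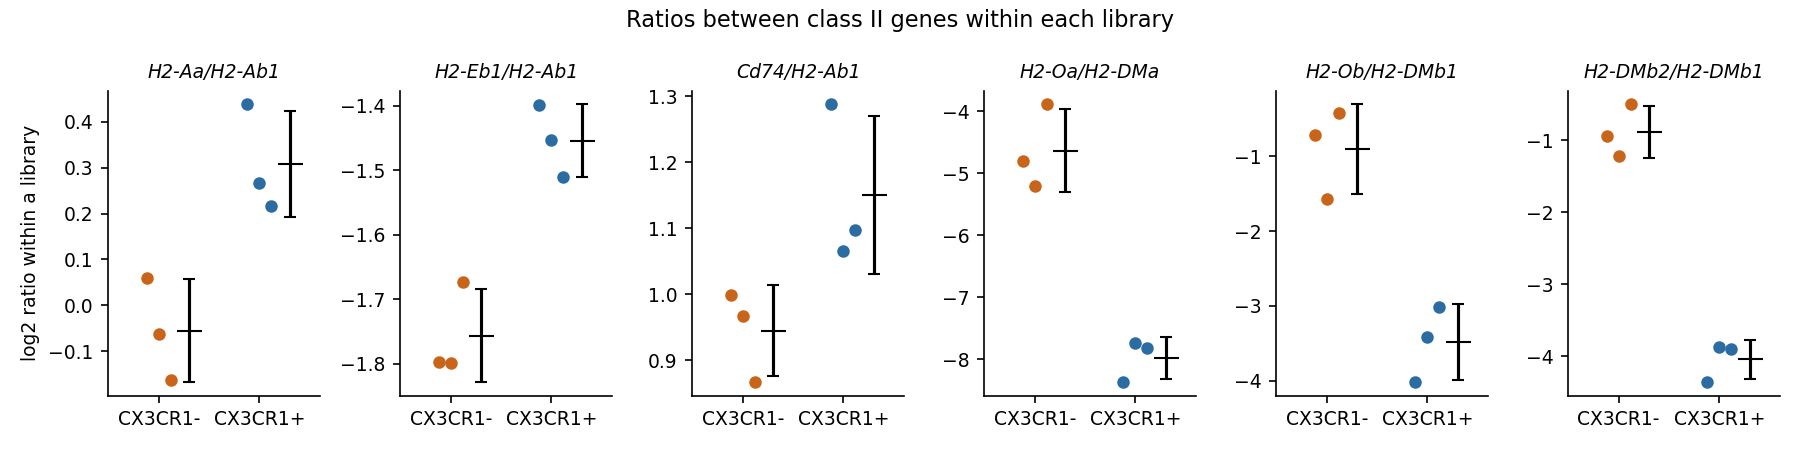
Log2 ratio of 6 pairs of class II genes within each library, CX3CR1- in orange and CX3CR1+ in blue, with mean and SD (n = 3). The vertical axes differ in range and do not start at 0; the gates do not overlap in any of the 6, with wider gaps for the 3 ratios of H2-Oa, H2-Ob and H2-DMb2 than for the 3 ratios to H2-Ab1.

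Between genes, levels were compared per kilobase of the longest protein-coding transcript. In CX3CR1- cells the order of the normalized level per kilobase was Cd74 (32742 ± 3742, SD, n = 3), H2-Aa (20447 ± 2037), H2-Ab1 (19782 ± 2135), H2-Eb1 (4254 ± 466), H2-DMa (1132 ± 472), H2-DMb1 (714 ± 261), H2-DMb2 (351 ± 45.5), H2-Ob (192 ± 23.3), Ciita (92.3 ± 12.2) and H2-Oa (77.8 ± 0.447). Neighbours whose libraries overlapped were H2-Aa with H2-Ab1 and H2-DMa with H2-DMb1. In CX3CR1+ cells Cd74 (58699 ± 3182, SD, n = 3), H2-Aa (40903 ± 2362), H2-Ab1 (30741 ± 969) and H2-Eb1 (8149 ± 269) led in the same order without overlap. There Ciita (94.1 ± 22.4) stood above H2-DMb2 (52.7 ± 10.4), H2-Ob (43.6 ± 9.58) and H2-Oa (7.32 ± 1.51), with H2-DMb2 and H2-Ob overlapping, while in CX3CR1- cells H2-DMb2 and H2-Ob were above Ciita.

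The proteins that bind class II promoters were compared by the RNA of their genes. Of 7 genes of RFX, NF-Y and CREB, none was called in either direction at the limits above (limma). The background was 12.2% higher and 8.15% lower, and 7 genes are too few to set this count apart from it. Their median log2 fold change was -0.25, and 1 passed both the adjusted p alone and an unadjusted p of 0.05. That gene was Nfya, the DNA-binding A subunit of NF-Y, at 346 to 444 in CX3CR1- and 613 to 695 in CX3CR1+ libraries (log2 fold change -0.78, adjusted p = 0.0122). Nfyb, its B subunit, lay at 71.1 to 185 and 57.5 to 73.5, with overlap (log2 fold change 0.69, adjusted p = 0.213).

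Of 12 genes that induce or repress Ciita, 11 were tested, 2 of them called higher and 3 lower in CX3CR1- cells, with a median log2 fold change of -0.54. Prdm1, which encodes the repressor Blimp-1, was at 117 to 221 in CX3CR1- and 534 to 1196 in CX3CR1+ libraries (log2 fold change -2.22, adjusted p = 8.79e-04). Ifngr2, a chain of the interferon gamma receptor, was lower as well (-1.60, adjusted p = 2.62e-04), whereas Jak2, the kinase bound to that chain, was higher (1.55, adjusted p = 2.20e-04). Irf4, a transcription factor of dendritic cells and plasma cells, was higher (1.64, adjusted p = 1.54e-04).

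Of 10 genes of invariant chain and antigen processing, which include the cathepsins, the cathepsin inhibitor Cst3 and the thiol reductase Ifi30, 6 were called lower and none higher (8 and 0 at an unadjusted limma p under 0.05), with a median log2 fold change of -1.12, and the 6 became 3 under quantile normalization. Cst3 and Ifi30 were among the 4 not called. Ctss, the cathepsin that makes the last cuts in the invariant chain of macrophages and dendritic cells, was at 2117 to 2716 in CX3CR1- and 6915 to 7941 in CX3CR1+ libraries (log2 fold change -1.63, adjusted p = 3.29e-05). Lgmn, an asparagine endopeptidase of lysosomes, fell furthest (-2.57, adjusted p = 1.35e-04). Next came the cathepsin Ctsb (-2.24, adjusted p = 9.27e-06), then Ctss, then the cathepsin Ctsh (-1.27, adjusted p = 8.85e-04). Cathepsins are abundant in macrophages in general, and the macrophage markers moved with them, with Adgre1 (F4/80) at 383 to 397 in CX3CR1- and 3390 to 3522 in CX3CR1+ libraries and C1qa at 395 to 454 and 2711 to 3656. The part of the macrophage markers in this result was not tested.

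Genes that govern how long class II stays on the surface were compared next. Of 8, 1 was called higher (background 12.2% of all tested genes) and 3 lower (background 8.15%). Their median log2 fold change was -0.60. Cd83, which protects surface MHC class II from ubiquitin-driven removal, was at 3170 to 4672 in CX3CR1- and 12892 to 16591 in CX3CR1+ libraries (log2 fold change -1.90, adjusted p = 3.37e-05). The tetraspanin Cd63 (-1.82, adjusted p = 4.62e-04) and Il10ra, a chain of the interleukin 10 receptor (-1.59, adjusted p = 9.60e-04), were lower too. The tetraspanin Cd37 was called higher (1.04, adjusted p = 0.0283), a call that was lost without CX3CR1- library 2 (0.69, adjusted p = 0.0493) or any one of the CX3CR1+ libraries (0.97 to 1.09, adjusted p = 0.0707 to 0.103). March1, the ubiquitin ligase that removes class II from the surface, named here after its values had been seen, was at 261 to 399 and 461 to 768, without overlap but under the fold limit (log2 fold change -0.84, adjusted p = 0.0329).

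No call was made among the other genes of the class II region. Of 7 tested neighbours, such as the peptide transporter Tap1 and the proteasome gene Psmb8, none was called (limma), none separated the gates and 0 had an unadjusted p under 0.05, with a median log2 fold change of -0.06. The one with the largest log2 fold change was H2-Eb2, a class II beta gene of low expression, at 10.4 to 21.5 in CX3CR1- and 4.92 to 10.6 in CX3CR1+ libraries (0.93, adjusted p = 0.306).

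**Figure D5:**
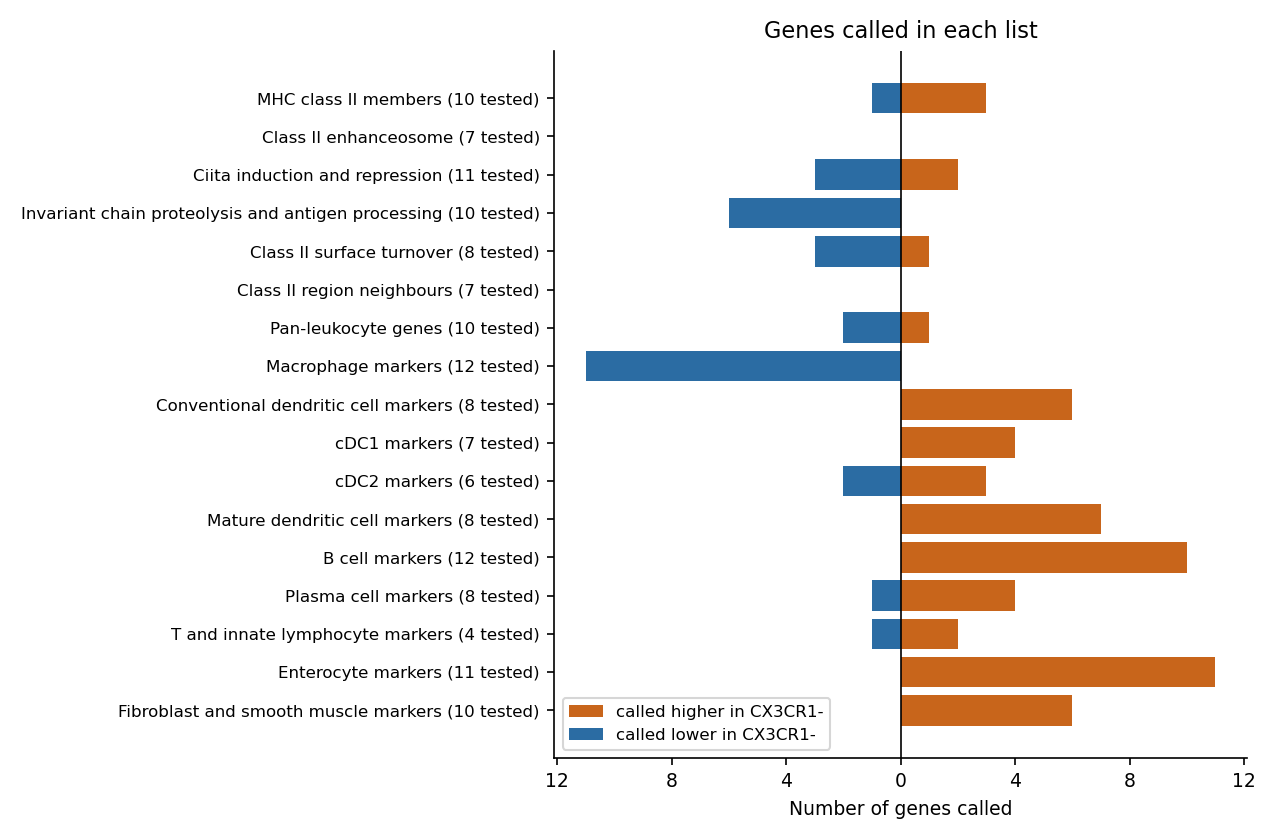
Number of genes called higher (orange, to the right) or lower (blue, to the left) in CX3CR1- cells in each list of class II and cell type genes, with the number tested in brackets. The invariant chain proteolysis list and the macrophage markers have calls to the left only, and the B cell, enterocyte and mature dendritic cell markers to the right only.

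Markers of the cells that are known to express H2-O were also higher in CX3CR1- libraries. Of 12 B cell markers, 10 were called higher and none lower (10 and 1 at an unadjusted limma p under 0.05), with a summed level of 1848 to 2367 in CX3CR1- and 1047 to 1103 in CX3CR1+ libraries. Most of the CX3CR1+ sum came from Bank1, at 760 to 830 against 403 to 421 in CX3CR1- libraries. Bank1 was lower in CX3CR1- cells but under the fold limit (log2 fold change -0.94, limma adjusted p = 0.00223). Cd79a, a chain of the B cell receptor, read 150, 286 and 161 in CX3CR1- libraries and at most 1.85 in CX3CR1+ libraries. Pax5, the factor of B cell identity, read 263, 196 and 199 against 0.199, 0 and 38.7. Of the 12 markers, 3 were at or under the level of 3 reads in all CX3CR1+ libraries, and the others were above it in at least 1 of them.

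Of 8 conventional dendritic cell markers, 6 were called higher and none lower in CX3CR1- cells, and their summed level was 2480 to 2749 against 391 to 394 (7 and 0 at an unadjusted limma p under 0.05). One of them, Btla, was at or under 3 reads in all CX3CR1+ libraries. Flt3, the receptor on which dendritic cells depend, was at 164 to 237 in CX3CR1- and 18.7 to 19.5 in CX3CR1+ libraries, and Dpp4 at 427 to 551 and 27.5 to 35.6. Markers of cDC1 were called higher in 4 of 7 and lower in none (5 and 0 at an unadjusted limma p under 0.05, summed level 3456 to 5265 against 1775 to 1960), with Clec9a at 894 to 1193 and 35.4 to 70.1. Of 6 cDC2 markers, 3 were called higher and 2 lower (4724 to 5108 against 5929 to 6684), with Cd209a at 803 to 898 and 16.9 to 32.5 and Sirpa, also a macrophage gene, lower. Of 8 markers of mature dendritic cells, 7 were called higher (2273 to 2756 against 441 to 548), with Ccr7 at 183 to 295 and 1.85 to 36.8 and Ccl22 at 1020 to 1494 and 73.0 to 93.3. The part of B cells or dendritic cells in the H2-Oa, H2-Ob and H2-DMb2 levels was not tested.

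Markers of other cells of the gut wall differed as well, of which enterocytes can also carry MHC class II. All 11 enterocyte markers were called higher in CX3CR1- cells, at a summed level of 17645 to 32301 against 20.3 to 47.9, with Fabp2 at 12559 to 21161 and 0.820 to 9.25, and 5 of the 11 were at or under 3 reads in all CX3CR1+ libraries. Of 10 fibroblast and smooth muscle markers, 6 were called higher (4752 to 14042 against 1699 to 2147), with Dcn at 1582 to 4141 and 52.8 to 135. Plasma cell markers were called higher in 4 of 8 and lower in 1 (2405 to 5049 against 1301 to 1946), with Jchain at 946 to 2900 and 8.81 to 12.2. Lists share some genes, so that these calls are not all separate. Irf4 (higher) and Prdm1 (lower) were also counted among the genes that induce or repress Ciita, and Irf4 among the cDC2 markers. Of 4 tested T cell and innate lymphocyte markers, 2 were higher and 1 lower (444 to 501 against 645 to 753), Cd8a at 20.4 to 41.3 and 1.42 to 7.90 and Cd4, which macrophages also express, at 101 to 113 and 506 to 540. The part of these cells in the class II levels was not tested.

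The class II levels were also taken relative to leukocyte RNA. Of 10 pan-leukocyte genes, 1 was called higher and 2 lower (15023 to 20753 against 23163 to 25583), Lsp1 (log2 fold change 2.85), Vav1 (-1.11) and Lcp1 (-1.07). The median log2 fold change of the 10 was -0.22, so that Lsp1 lay far from the middle and raised their mean in CX3CR1- libraries. Class II differences on this scale are thereby more negative than on the same scale without Lsp1, which was not computed. Relative to the geometric mean of these 10 genes, the log2 fold change was -0.93 for H2-Aa, -0.57 for H2-Ab1, -0.87 for H2-Eb1 and -0.77 for Cd74, each with a limma adjusted p of at most 0.0289. Relative to the non-mitochondrial total, these were -0.83, -0.47, -0.77 and -0.67. H2-DMb2, H2-Oa and H2-Ob had log2 fold changes of 2.80, 3.34 and 2.22 relative to the leukocyte genes.

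Last, genes whose log2 profile over the 6 libraries lay nearest to a member, after each profile was centred, were found by the root mean square difference. Nearest to H2-Ab1 were Ino80d (0.0515), Gm9973 (0.0543) and Bcl10 (0.0564). H2-Ob had Maoa (0.133), Mmp12 (0.154) and Chmp4c (0.172), and Ciita had Ppip5k2 (0.0750), Mettl16 (0.0866) and Exoc1 (0.0885). The members themselves were left out of this search beforehand, and none of these 9 genes stood on the class II lists.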

How the data were processed

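Bulk RNA-seq of 3 MHCIIhiCX3CR1- and 3 MHCIIhiCX3CR1+ libraries was analysed, with groups taken from the sample titles. The authors pseudoaligned the reads with kallisto to GENCODE M16 transcripts (mm10 per the submitters' processing notes) and scaled the estimated counts of each gene between libraries with DESeq2. What was deposited is such normalized signal, not counts, and 42.5 to 43.8% of the values in a library were whole multiples of the library's smallest step (tolerance 0.01), so that no count test was run. That step gave the approximate reads per library. Depth and the 3 libraries per gate limit precision, which is given as the SD.

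Genes with a mean of at least 10 (17812 of 26110) were tested on log2(value + 1) with limma 3.58.1 in R 4.3.3 (intensity trend, two-sided, no covariate), which was tested on simulated data first. Of 23 repeated symbols, the entry with the larger mean was used. Positions, transcript lengths and shared 31-base words are from GENCODE M21, and tables were handled with Python 3.11.15, pandas 2.3.3, scipy 1.17.1 and matplotlib 3.10.9. The members and all gene lists were chosen with earlier results of these data known. Named are the 10 members, Cx3cr1, Ptprc, up to 4 genes per list with the largest absolute log2 fold change, and the 3 genes nearest to H2-Ab1, H2-Ob and Ciita. Exceptions, named after their values were seen, are Tap1, Psmb8, Cst3 and Ifi30, which show what a list holds, Bank1, which weighs on a sum, Brd2, which shares sequence with a member, and March1. BC051537, which also shares sequence with a member, has no entry among the deposited values. Alternatives were pseudocounts of 0.5 and 10, no filter, a mean of at least 50, 4 other scalings, no intensity trend, adjacent library numbers as a block and leaving out each library. Flow cytometry and microscopy were not analysed here.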

Additional observations from a re-analysis of the deposited data

How the results depend on the processing

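H2-DMb2, H2-Oa and H2-Ob were called higher under all alternatives run for them (16, 15 and 16), since H2-Oa was not tested at a mean of at least 50. The number of class II genes called lower (1) was 3 under quantile normalization, 0 with median-of-ratios factors computed again, scaled to the non-mitochondrial total or to leukocyte genes, 0 to 2 when a library was left out, and 4 by the adjusted p alone, a rule added after the data had been seen. H2-Ab1 had an adjusted p of up to 0.0894 (no intensity trend), and Cd74 ranged from -1.57 to -0.67. H2-DMa changed sign under quantile normalization (0.32) and the non-mitochondrial total (0.10), and ranged from -0.36 to 0.30 without a library. Ciita changed sign under quantile normalization (0.19), median-of-ratios factors (0.016), the non-mitochondrial total (0.17) and leukocyte genes (0.066), and ranged from -0.20 to 0.15 without a library. Ptprc was at 0.32 under quantile normalization, and H2-DMb1 at 0.12 when added to H2-DMb2. H2-Oa against H2-DMa differed by 2.48 with a pseudocount of 10.

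Quantile normalization and the non-mitochondrial total shifted all tested genes to a median log2 fold change of -0.15 and 0.16, and the calls from 2177 higher and 1451 lower to 1716 and 1674, and to 2487 and 1116. A mean of at least 50 left 1232 genes higher, with fewer genes tested. Calls lower among proteolysis genes were 3 under quantile normalization. Calls lower among pan-leukocyte genes were 0 under quantile normalization and the non-mitochondrial total, 1 relative to leukocyte genes, and 1 to 3 without a library. Calls lower among cDC2 markers were 1 under quantile normalization and the non-mitochondrial total. Calls higher among surface turnover genes were 0 with no intensity trend and 0 to 1 without a library. Calls higher among T cell and innate lymphocyte markers were 1 at a mean of at least 50 and under quantile normalization, and 1 to 3 without a library. The cause of these changes was not tested. With mean transcript length the CX3CR1- levels per kilobase were 23607 for H2-Aa, 26251 for H2-Ab1, 5000.1 for H2-Eb1, 248 for H2-Ob and 159.6 for Ciita, and the CX3CR1+ levels were 47224 for H2-Aa, 40793 for H2-Ab1, 9578 for H2-Eb1, 1421 for H2-DMa, 56.3 for H2-Ob, 62402 for Cd74 and 162.6 for Ciita. H2-Ab1 then ranked above H2-Aa in CX3CR1- and H2-Ob above H2-DMb2 in CX3CR1+ cells. With the largest difference as distance, 6 of the 9 nearest genes were shared. The labels share no replicate numbers between the gates. Adjacent library numbers as a block, which the labels do not call pairs, gave 2165 genes higher and 1445 lower and changed no call of a class II gene. Approximate depth limits values near 3 reads.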
